A study of Mus musculus with 9 samples.

Results

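The genes described here encode the machinery that licenses replication origins and copies DNA at the fork. They were taken from a written list of 40 genes in 8 functional roles, and all 40 were found among the 29995 genes of the expression table that omits immunoglobulin (Ig) genes. RNA was sequenced from splenic B-lineage cells of B6.Blimp1+/GFP mice, in which 1 copy of the gene for Blimp1 (Prdm1) carries a green fluorescent protein (GFP) reporter. All 3 groups came from 12 week old mice of this genotype, which had received 50 µg NP-LPS (lipopolysaccharide carrying the hapten nitrophenyl) by the intraperitoneal route 4 days earlier, so the naive B cells are from injected and not from untreated animals. Naive B cells were sorted as IgD high, B220+ cells without NP binding; activated B cells (the NP-specific group) as NP-binding, IgD-, GFP-, CD138- and B220+; and plasma cells as NP-binding, IgD-, GFP+ and CD138+. Each group had 3 libraries, and the study's design names 3 mice without tying a replicate number to a mouse. Activated B cells and plasma cells were each compared with naive B cells, and plasma cells with activated B cells. The comparisons asked which replication genes differ in level among the 3 groups.

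Replication is prepared before S phase by licensing. The origin recognition complex, Cdc6 and Cdt1 load the ring-shaped MCM2-7 helicase on DNA, and geminin (Gmnn) binds Cdt1 to prevent a repeat of that step. Mcm10, Cdc45 and the GINS complex then turn the ring into an active helicase. At the fork, polymerase alpha with primase lays primers, polymerases delta and epsilon extend them, PCNA and its loader RFC keep the polymerases on the template, RPA covers single strands, Fen1 and Lig1 join the lagging-strand fragments, and CAF-1 places histones on the new DNA. E2F transcription factors are known regulators of many of these genes. B cells that meet antigen divide before and while they become plasma cells, and plasma cells withdraw from the cycle as they mature.

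Levels are given as TPM, a measure of transcript abundance corrected for transcript length, in the table without Ig genes. A gene was called where limma gave an adjusted p (Benjamini-Hochberg over 12892 genes tested) under 0.05 together with a fold change above 2. The estimated reads outside Ig genes were 28490278 to 31719387 in naive B cells, 34918379 to 38602257 in activated B cells and 20189947 to 22137412 in plasma cells. All 40 genes passed the low-value filter of a TPM of 1 in 3 libraries, and the lowest estimated count of any of them in any library was 86.83, for Gins1. The sort was matched by the markers of the groups. Summed over 6 B cell genes the TPM was 8446 to 8760 in naive B cells, 6301 to 6778 in activated B cells and 1497 to 1568 in plasma cells, and over 5 plasma cell genes it was 142 to 167, 175 to 194 and 4811 to 5939. The 4 proliferation genes Mki67, Ccnb1, Cdk1 and Birc5 summed to 27.4 to 39.2, 580.0 to 815 and 526 to 670 TPM in the same order of groups. Among 6 liver genes the sum was 4613 TPM in replicate 3 of the plasma cells and at most 26.5 in any other library, and their part in the results was not tested beyond leaving that library out. The myeloid list (6 of 7 genes found) summed to 7.76 to 9.65 TPM in naive B cells, 68.1 to 84.6 in activated B cells and 38.6 to 110.9 in plasma cells. Most of it was Cd68 at 45.0 to 67.6 TPM and Itgam at 12.3 to 16.0 in activated B cells, whereas Csf1r was at or under 2.31 in all 9 libraries. Plasma cell replicate 3, the library with the liver transcripts, was the highest for Lyz2 at 48.2 TPM (2.85 and 11.6 in the rest of its group), C1qb at 15.9 (1.18 and 0.747) and C1qa at 7.24 (0.4998 and 0). The erythroid list (9 of 10 found) summed to 25.3 to 32.2, 76.8 to 113.4 and 18.6 to 48.1 TPM in the same order. Its excess in activated B cells was the embryonic globin gene Hbb-bh1, at 41.8 to 84.3 TPM there and at or under 0.965 elsewhere, with Klf1 at or under 0.517 in all libraries. The T cell list of 7 genes summed to 412 to 428, 361 to 424 and 19.3 to 26.7 TPM, with Cd2 at 357 to 421 in naive and activated B cells and 13.8 to 20.5 in plasma cells, and with Trac listed at 0 in all libraries and Cd3e at or under 1.15. The 5 germinal centre genes summed to 52.7 to 60.2, 154 to 208 and 8.59 to 11.6 TPM. The part of these transcripts in the results was not tested.

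In activated B cells 28 of the 40 genes were called higher than in naive B cells and 0 were called lower, whereas 8.13% of all genes tested were called higher and 10.4% lower. The median log2 change of the 40 genes was 1.48, beside -0.16 for all genes tested. In plasma cells against naive B cells, 15 were called higher and 3 lower (Pold1, Rpa1 and E2f2), with 11.4% of all genes called higher and 26.3% lower, and a median of 0.60 beside -0.47. In plasma cells against activated B cells, 0 were called higher and 12 lower, with 9.93% and 22.3% of all genes, and a median of -0.78 beside -0.30. Beside the counts of 0, an unadjusted limma p under 0.05 was reached by 2 of the 40 genes (Cdt1 and Pold1) for a lower level in activated than in naive B cells, against 29.2% of all genes, and by 2 (Fen1 and Pold2) for a higher level in plasma cells than in activated B cells, against 17.5%. In bulk samples fewer cells of a type and less RNA per cell cannot be told apart, so each level is an average over cycling and resting cells of the sorted population. The mean TPM was highest in activated B cells for 34 genes, of which 30 were lowest in naive B cells and 4 in plasma cells. It was highest in naive B cells for 4 genes (Cdt1, Pold1, Pold3 and E2f2) and in plasma cells for 2 (Pold2 and Fen1). Naive B cells had a summed level of 1269 ± 39.98 TPM over the 40 genes (SD, n = 3), activated B cells 3017 ± 494 and plasma cells 1847 ± 107.

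The comparisons with plasma cells depend on how libraries are scaled. With Ig genes kept in the table, 5 of the 40 genes (Cdc6, Mcm10, Cdc45, Gins1 and Gins2) were called higher and 10 lower in plasma cells than in naive B cells, with 4.47% and 64.5% of all genes and a median of -0.57 beside -1.40. With median-of-ratios scaling the same comparison gave 23 higher and 1 lower, with 18.2% and 14.1% of all genes and a median of 1.10 beside 0.02. With quantile normalization it gave 19 higher and 2 lower, with 16.0% and 15.9% of all genes and a median of 0.95 beside -0.07. Against activated B cells, the 12 genes called lower in plasma cells became 37 with Ig genes kept (59.7% of all genes), 6 with median-of-ratios scaling (13.9%) and 5 with quantile normalization (14.3%), and 0 were called higher in each. The distance between the medians of the 40 genes and of all genes against naive B cells moved less, at 1.08, 0.83, 1.08 and 1.03 log2 units in the main, full-table, median-of-ratios and quantile versions. Against activated B cells that distance was -0.48, -0.55, -0.48 and -0.35 in the same order. Without plasma cell replicate 3, the library with the liver transcripts, the plasma cell counts were 14 higher and 3 lower against naive B cells (11.8% and 25.9% of all genes), and 0 higher and 9 lower against activated B cells (21.4% of all genes lower).

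**Figure D1:**
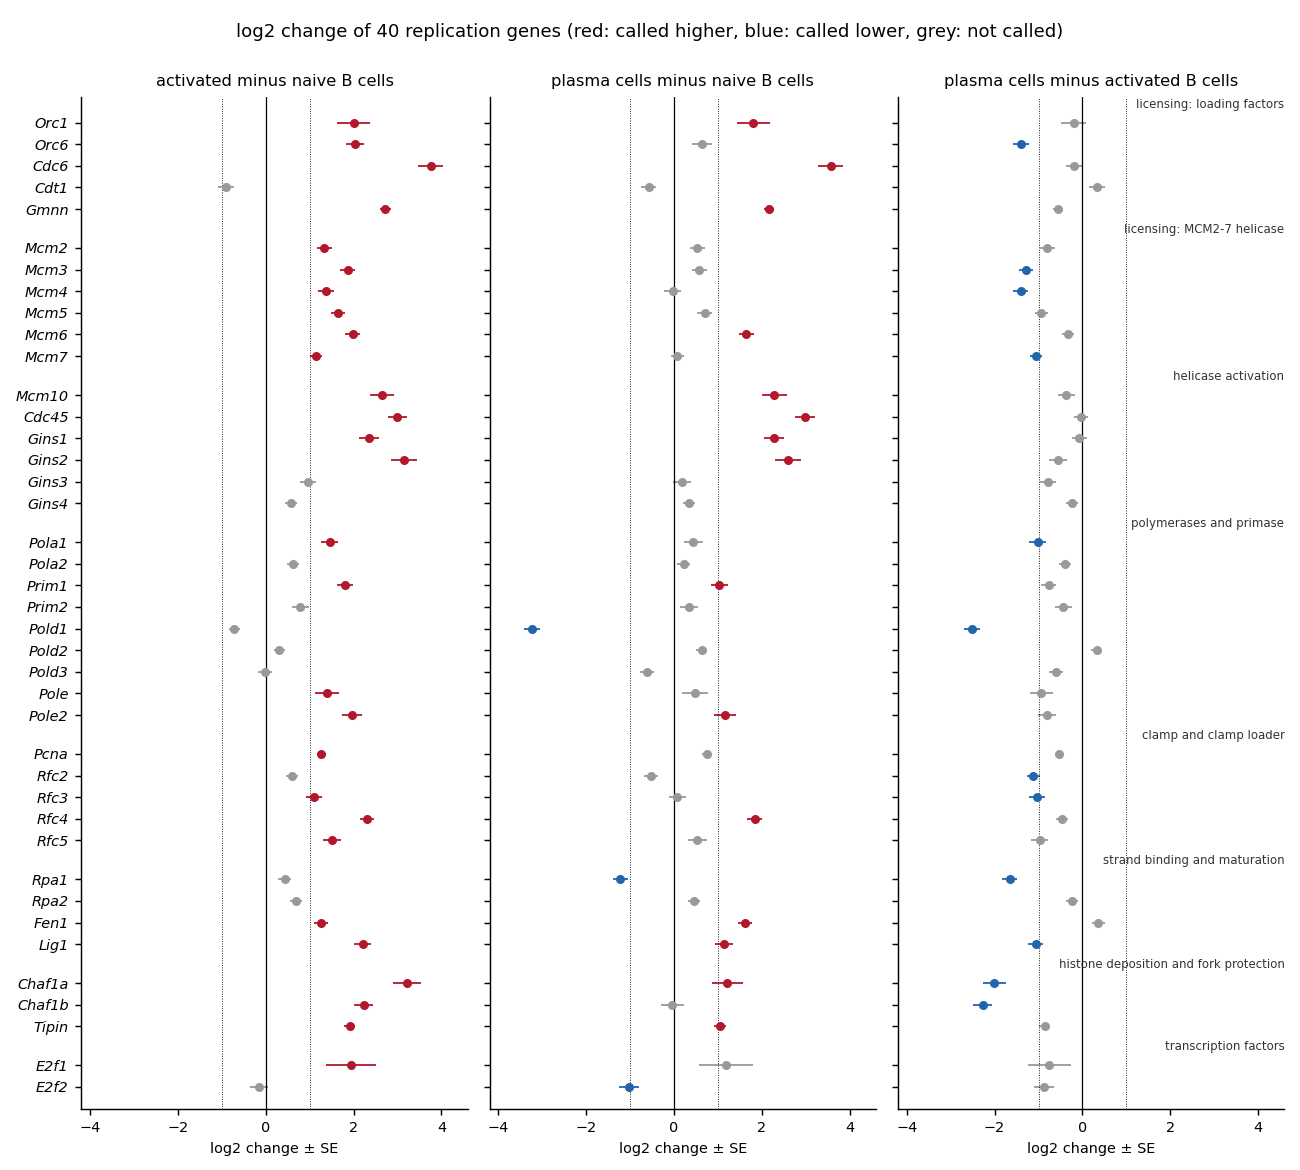
Log2 change with its standard error for each of the 40 genes (rows, by role) in the 3 comparisons, with red for genes called higher, blue for genes called lower and grey for genes not called; dotted lines mark a 2-fold change. The left panel has 28 red points and 0 blue, the middle panel 15 and 3 (5 and 10 when Ig genes are kept in the scaling), and the right panel 0 and 12 (0 and 37 with Ig genes kept, 0 and 5 with quantile normalization).

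The promoters of the genes were examined for sequences bound by regulators of the cell cycle, since the levels of most of the genes moved together. Promoter windows of 300 bases (250 before to 50 after the annotated start) came from RefSeq on GRCm38.p6, and 31 of the 40 genes had a window, with 37 windows in all. Gins1, Gins2, Gins4, Gmnn, Mcm4, Pole, Prim2, Rfc2 and Tipin were not in the table. Searched on both strands were the E2F-type letters TTTCGCGC, TTTGGCGC, TTTCCCGC and TTTGCCGC, the cell cycle homology region (CHR) letters TTTGAA and TTCGAA, and CCAAT. Of the 31 genes, 15 held an E2F-type match, and 15 of their 37 windows (40.5%) did so, whereas 2.26% of all 32851 windows and 3.78% of the 11310 windows of genes tested held one. A CHR match was in 21.6% of the 37 windows, in 19.2% of all windows and in 14.3% of those of genes tested. A CCAAT match was in 56.8%, 37.4% and 38.4% of windows in the same order. These matches are a description of letters, and binding of a factor was not measured.

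The 3 genes with the largest rise from naive to activated B cells among those with an E2F-type match were Cdc6, Lig1 and Orc1, and their windows are shown along the gene's strand with the matching letters in capitals. All 3 lie on the plus strand, Cdc6 at chr11:98907901-98908200, Lig1 at chr7:13278576-13278875 and Orc1 at chr4:108579204-108579503 (GRCm38.p6). For Lig1, 1 of its 3 windows held the match. In Cdc6 the capitals read as TTTCCCGC on the other strand, and in Lig1 and Orc1 as TTTCGCGC on the other strand.
Cdc6: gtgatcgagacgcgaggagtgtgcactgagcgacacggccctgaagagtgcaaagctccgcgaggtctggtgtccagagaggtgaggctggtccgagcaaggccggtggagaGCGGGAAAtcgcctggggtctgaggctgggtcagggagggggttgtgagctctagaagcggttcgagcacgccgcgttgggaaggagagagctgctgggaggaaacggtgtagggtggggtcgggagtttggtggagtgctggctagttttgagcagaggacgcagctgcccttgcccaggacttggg
Lig1: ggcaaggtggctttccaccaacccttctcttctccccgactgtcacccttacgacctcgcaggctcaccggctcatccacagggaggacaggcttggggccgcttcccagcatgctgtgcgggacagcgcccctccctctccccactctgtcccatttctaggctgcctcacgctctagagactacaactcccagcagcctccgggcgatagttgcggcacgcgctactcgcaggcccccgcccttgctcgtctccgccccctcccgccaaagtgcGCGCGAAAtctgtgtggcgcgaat
Orc1: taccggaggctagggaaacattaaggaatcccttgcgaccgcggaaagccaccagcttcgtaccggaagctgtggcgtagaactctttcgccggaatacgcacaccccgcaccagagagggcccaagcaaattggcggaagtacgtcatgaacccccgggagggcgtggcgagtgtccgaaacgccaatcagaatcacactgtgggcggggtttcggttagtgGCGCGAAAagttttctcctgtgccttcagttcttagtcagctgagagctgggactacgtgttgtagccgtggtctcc

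The 15 genes with an E2F-type match held 21 matches, and in 14 of these the first base lay within 100 bases before the start site or after it. A single window held 2 or more matches in 5 genes, namely Mcm3, Mcm5, Mcm6, Mcm7 and Rfc3. Mcm6 had the largest number, with 3 matches, of which 2 overlap each other, and the 2 matches of Mcm5 also overlap. Thus 4 of the 5 MCM2-7 subunits with a window held a match, and Mcm2 was without one. An E2F-type match was held by 10 of 22 genes called higher in activated B cells than in naive B cells. Of the 9 genes not called higher, 5 held one, and the difference between these shares was not tested. The latter 5 were Cdt1, Gins3, Pold1, Pold3 and E2f2, which include the 2 genes with the most negative change, Cdt1 and Pold1. Among the genes called higher, Chaf1a, Cdc45 and Mcm10 had larger rises than Lig1 and held no E2F-type match in this window.

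**Figure D2:**
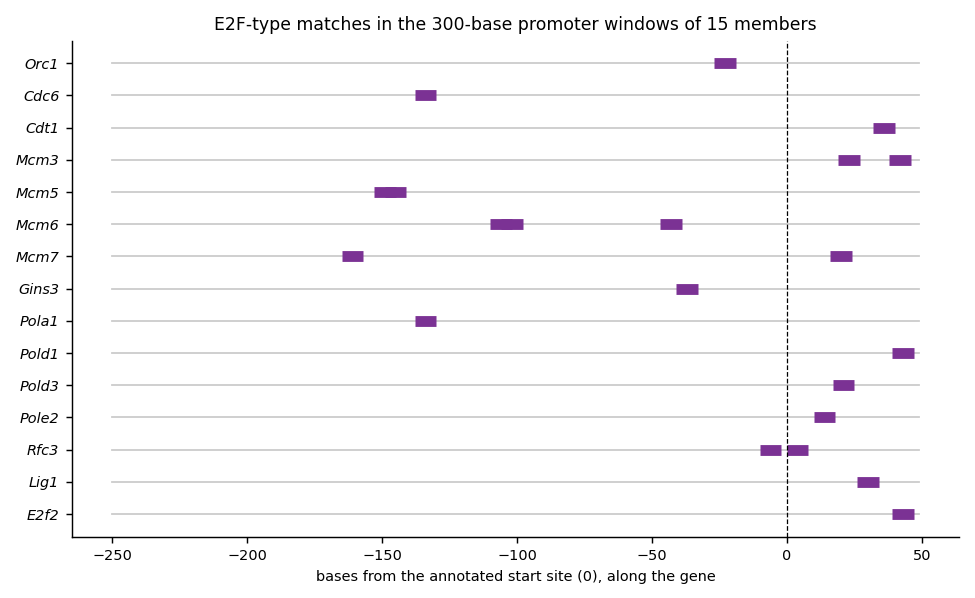
Position of each E2F-type match (purple bars) in the 300-base window (grey lines) of 15 genes, in bases from the annotated start site at 0. Mcm6 holds 3 matches, and 14 of the 21 matches begin within 100 bases before the start or after it.

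The factors that load the helicase did not move as 1 block. Of the 5 genes in this role, Orc1, Orc6, Cdc6 and Gmnn were called higher in activated B cells (8.13% of all genes). In plasma cells Orc1, Cdc6 and Gmnn were (11.4% of all genes), both against naive B cells. Cdc6, the ATPase that works with the origin recognition complex to load MCM2-7, was at 2.81, 1.66 and 2.41 TPM in naive B cells, 42.7, 28.0 and 41.7 in activated B cells and 35.0, 29.0 and 32.9 in plasma cells. Every library of both NP-binding groups was above every naive library, and the NP-binding groups overlapped. Its log2 change was 3.75 ± 0.29 (SE, limma adjusted p = 5.97e-06) in activated B cells, a fitted fold of 13.5, and 3.56 ± 0.29 (adjusted p = 1.52e-06) in plasma cells. These were the largest rises among the 40 genes. The mean TPM of Cdc6 was 2.30 in naive and 37.4 in activated B cells. The fit added 0.5 to each TPM, so for genes at low TPM its fold changes are smaller than the ratios of the means. Between plasma cells and activated B cells Cdc6 differed by -0.19 ± 0.18 (limma adjusted p = 0.395). Cdc6 lies at chr11:98907801-98923940 on the plus strand.

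Geminin, the inhibitor of Cdt1, and Cdt1 itself moved in opposite directions. Gmnn was at 18.1, 19.7 and 19.2 TPM in naive B cells, 142, 119 and 127 in activated B cells and 84.97, 87.2 and 89.1 in plasma cells. The 3 groups did not overlap. The log2 change was 2.72 ± 0.12 in activated B cells (limma adjusted p = 4.28e-07) and 2.16 ± 0.12 in plasma cells (adjusted p = 9.7e-08) against naive B cells. Plasma cells differed from activated B cells by -0.56 ± 0.10 (limma adjusted p = 0.000496), short of the fold minimum. Cdt1, the loader that brings MCM2-7 to the origin, was at 34.1, 33.7 and 37.3 TPM in naive B cells, 24.4, 16.2 and 16.2 in activated B cells and 21.1, 27.2 and 22.1 in plasma cells. All 6 libraries of the NP-binding groups were below the 3 naive ones, and the NP-binding groups overlapped. On the log2 scale the change was -0.90 ± 0.17 in activated B cells (limma adjusted p = 0.00218) and -0.58 ± 0.17 in plasma cells (adjusted p = 0.0116), both under the fold minimum, and with Ig genes kept the latter was -1.73 and was called lower. Without activated replicate 1, the highest of its group for Cdt1, the first change was -1.10 (limma adjusted p = 0.000684) and was called lower. The ratio of Gmnn to Cdt1 within a library, which does not move with a single scaling factor per library, was 0.531, 0.584 and 0.515 in naive B cells, 5.82, 7.35 and 7.84 in activated B cells and 4.03, 3.20 and 4.03 in plasma cells.

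Of the origin recognition complex, Orc1 and Orc6 are among the 40 genes, and Orc2 to Orc5, on the wider list, were called in none of the comparisons. Under the fold minimum, Orc3 and Orc5 were lower in plasma cells than in naive B cells. Their log2 changes were -0.52 (limma adjusted p = 0.000753) and -0.79 (adjusted p = 0.000365). Orc4 was higher in activated than in naive B cells, at 0.41 (limma adjusted p = 0.0165), also under the fold minimum. Orc6 was at 14.1, 17.3 and 17.8 TPM in naive B cells, 85.2, 53.2 and 72.6 in activated B cells and 28.7, 22.9 and 25.8 in plasma cells. The groups did not overlap, and plasma cells lay between the others. The fitted log2 change was 2.04 ± 0.20 (limma adjusted p = 2.93e-05) in activated B cells against naive B cells and -1.41 ± 0.19 (adjusted p = 7.92e-05) in plasma cells against activated B cells. With quantile normalization the latter was -0.95 and under the fold minimum. In plasma cells against naive B cells the change of Orc6 was 0.63 ± 0.22 (limma adjusted p = 0.0274). It was called higher with median-of-ratios scaling, at 1.13, and with quantile normalization, at 1.14, and was negative with Ig genes kept. Orc1, the ATPase subunit of the complex, was at 1.73, 1.64 and 2.20 TPM in naive B cells, 6.54, 6.86 and 15.8 in activated B cells and 8.05, 8.04 and 7.04 in plasma cells. Both NP-binding groups were above the naive libraries and overlapped each other, with log2 changes of 2.00 ± 0.37 (limma adjusted p = 0.0018) and 1.80 ± 0.38 (adjusted p = 0.00177). Of Orc1 exonic bases, 10.8% are shared with the gene Gm12743 on the opposite strand, and counting was not stated to use strand. The ratio of Cdc6 to Orc6 was 0.0961 to 0.199 in naive B cells, 0.501 to 0.574 in activated B cells and 1.22 to 1.27 in plasma cells.

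All 6 subunits of the MCM2-7 helicase were called higher in activated B cells than in naive B cells (8.13% of all genes), with log2 changes of 1.14 to 1.98. In plasma cells only Mcm6 was called higher than in naive B cells (11.4% of all genes), and none when Ig genes are kept in the scaling. Mcm3, Mcm4 and Mcm7 were called lower in plasma cells than in activated B cells (22.3% of all genes). The summed level of the 6 subunits was 227, 232 and 252 TPM in naive B cells, 841, 616 and 720 in activated B cells and 439, 425 and 336 in plasma cells. The 3 groups did not overlap, and plasma cells lay between the others. Mcm6 was the most abundant subunit in each activated and plasma cell library. It was at 45.6, 47.6 and 52.0 TPM in naive B cells, 214, 162 and 207 in activated B cells and 168, 171 and 125 in plasma cells. In log2 units the change was 1.98 ± 0.16 in activated B cells (limma adjusted p = 1e-05) and 1.65 ± 0.17 in plasma cells (adjusted p = 8.37e-06) against naive B cells. Plasma cells differed from activated B cells in Mcm6 by -0.33 ± 0.14 (limma adjusted p = 0.0741), and the 2 groups overlapped.

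**Figure D3:**
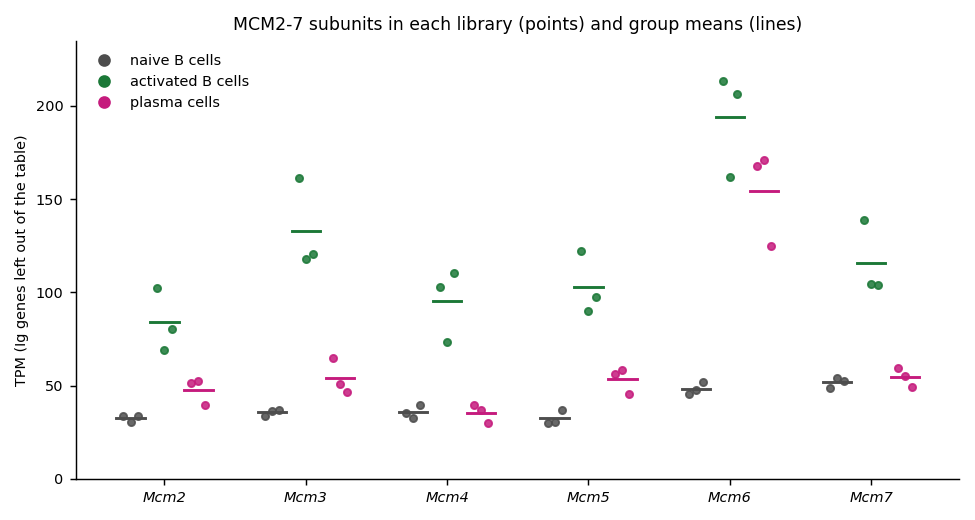
TPM (vertical axis, from 0) of the 6 MCM2-7 subunits in each of 9 libraries, with points for libraries and lines for group means. Activated B cells are above naive B cells for each subunit, and plasma cells are near the naive level for Mcm4 and Mcm7 but at 125 to 171 TPM for Mcm6.

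In plasma cells the other 5 subunits of the ring were nearer to the naive level. Mcm2, Mcm3 and Mcm5 were, however, also called higher than in naive B cells with median-of-ratios scaling. With Ig genes kept their changes were negative, and Mcm4 (-1.21) and Mcm7 (-1.12) were called lower. Mcm4 was at 35.3, 32.8 and 39.5 TPM in naive B cells, 103, 73.2 and 110 in activated B cells and 39.7, 36.6 and 29.8 in plasma cells. Naive B cells and plasma cells overlapped, and activated B cells lay above both. The log2 change of Mcm4 was 1.37 ± 0.18 (limma adjusted p = 0.000166) in activated B cells against naive B cells, -1.41 ± 0.18 (adjusted p = 5.5e-05) in plasma cells against activated B cells and -0.03 ± 0.19 (adjusted p = 0.894) in plasma cells against naive B cells. Mcm3 was at 33.5, 36.4 and 37.1 TPM in naive B cells, 161, 118 and 121 in activated B cells and 65.0, 50.8 and 46.7 in plasma cells. Its groups did not overlap, with log2 changes of 1.86 ± 0.17 (limma adjusted p = 1.55e-05) in activated B cells and 0.58 ± 0.18 (adjusted p = 0.0163) in plasma cells against naive B cells, the latter under the fold minimum.

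Mcm7, whose transcript also hosts the microRNA genes Mir93 and Mir25, was at 48.95, 53.9 and 52.4 TPM in naive B cells, 139, 105 and 104 in activated B cells and 59.2, 55.3 and 49.5 in plasma cells. Activated B cells lay above both other groups, which overlapped. The change (log2) was 1.14 ± 0.14 (limma adjusted p = 0.000112) in activated B cells against naive B cells, 0.07 ± 0.15 (adjusted p = 0.7) in plasma cells against naive B cells and -1.07 ± 0.14 (adjusted p = 6.19e-05) in plasma cells against activated B cells. The first change was 0.998 and the last -0.93 without activated replicate 1, both under the fold minimum. The last was also under it without plasma cell replicate 3, at -0.99, with median-of-ratios scaling, at -0.68, and with quantile normalization, at -0.72. Mcm2 was at 33.5, 30.6 and 33.7 TPM in naive B cells, 102, 69.3 and 80.5 in activated B cells and 51.2, 52.7 and 39.6 in plasma cells. Libraries of the 3 groups did not overlap, with log2 changes of 1.33 ± 0.17 (limma adjusted p = 0.000164) in activated B cells and 0.53 ± 0.18 (adjusted p = 0.0242) in plasma cells against naive B cells. Mcm5 was at 29.9, 30.7 and 36.8 TPM in naive B cells, 122, 89.8 and 97.7 in activated B cells and 56.1, 58.6 and 45.4 in plasma cells. No overlap was seen between the groups here either, with log2 changes of 1.64 ± 0.16 (limma adjusted p = 2.65e-05) and 0.70 ± 0.17 (adjusted p = 0.00407). In plasma cells Mcm2 and Mcm5 were lower than in activated B cells by log2 changes of -0.80 ± 0.16 (limma adjusted p = 0.00157) and -0.94 ± 0.15 (adjusted p = 0.000288), under the fold minimum. For Mcm3 that change was -1.29 ± 0.16 (limma adjusted p = 4.3e-05) and passed it, though it was -0.90 with median-of-ratios scaling and -0.94 with quantile normalization.

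The subunits were less even in plasma cells. The most abundant subunit was 1.56 to 1.76 times the least abundant in naive B cells, 2.09 to 2.57 times in activated B cells and 4.19 to 4.67 times in plasma cells. In naive B cells Mcm6 was 1.28 ± 0.0233 times the mean of the other 5 subunits (SD, n = 3), in activated B cells 1.83 ± 0.162 times and in plasma cells 3.14 ± 0.208 times. The lowest plasma cell library, at 2.96, was above the highest activated library, at 2.01. Ratios were picked after the levels had been seen and carry no test.

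Most genes that turn the loaded ring into a moving helicase were higher in both NP-binding groups. Of the 6, Mcm10, Cdc45, Gins1 and Gins2 were called higher than in naive B cells in both activated B cells (8.13% of all genes) and plasma cells (11.4%). In plasma cells against activated B cells 0 of the 6 were called, beside 9.93% of all genes called higher and 22.3% lower. In that comparison 2 of the 6 (Gins2 and Gins3) had an unadjusted limma p under 0.05 and a lower level, beside 41.4% of all genes. With Ig genes kept, all 6 were called lower in plasma cells than in activated B cells, at -1.197 to -1.82, as were 59.7% of all genes, whose median was -1.27. Cdc45, which forms the active helicase with MCM2-7 and GINS, was at 5.23, 5.11 and 4.75 TPM in naive B cells, 52.7, 34.0 and 47.3 in activated B cells and 43.6, 45.4 and 40.3 in plasma cells. The NP-binding groups overlapped, far above the naive libraries. The log2 change was 3.00 ± 0.23 (limma adjusted p = 5.5e-06) in activated B cells and 2.97 ± 0.23 (adjusted p = 9.47e-07) in plasma cells against naive B cells, and -0.03 ± 0.16 (adjusted p = 0.905) between the NP-binding groups. Its exons share 5.96% of their bases with Ufd1 on the opposite strand.

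The GINS complex has 4 subunits, which differed among themselves. Gins2 was at 4.49, 7.56 and 8.48 TPM in naive B cells, 77.2, 47.2 and 68.4 in activated B cells and 48.9, 44.0 and 35.9 in plasma cells. The NP-binding groups overlapped and were above all naive libraries, with log2 changes of 3.15 ± 0.29 (limma adjusted p = 1.71e-05) and 2.59 ± 0.29 (adjusted p = 1.99e-05). The Gins2 value is uncertain because 67.3% of its exonic bases are shared with Gse1 on the opposite strand, which itself was at a mean of 9.63, 3.41 and 5.75 TPM in naive, activated and plasma cells. Gins1 rose by 2.36 ± 0.23 (limma adjusted p = 2.68e-05) in activated B cells and 2.28 ± 0.23 (adjusted p = 8.56e-06) in plasma cells on the log2 scale. Gins3 was at 7.20, 7.78 and 6.79 TPM in naive B cells, 16.2, 12.1 and 16.4 in activated B cells and 7.38, 9.27 and 8.38 in plasma cells. Activated libraries were above both other groups, which overlapped. Its log2 change in activated B cells was 0.97 ± 0.18 (limma adjusted p = 0.00194), just under the fold minimum. It was called higher in 7 of the alternatives, including median-of-ratios scaling at 1.08 and without naive replicate 2 at 1.02. Gins4, the subunit with the highest TPM of the role, was at 46.9, 40.5 and 50.0 TPM in naive B cells, 77.7, 60.1 and 70.2 in activated B cells and 62.7, 59.8 and 53.3 in plasma cells. Activated and plasma cell libraries overlapped and lay above the naive ones, with log2 changes of 0.58 ± 0.13 (limma adjusted p = 0.00598) and 0.35 ± 0.14 (adjusted p = 0.0466), both under the fold minimum. Mcm10, which helps to activate the helicase, rose by 2.65 ± 0.27 (limma adjusted p = 4.07e-05) in activated B cells and 2.28 ± 0.28 (adjusted p = 3.96e-05) in plasma cells.

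The polymerase genes held the largest fall of all 40. Pold1, the catalytic subunit of polymerase delta, was at 177, 158 and 157 TPM in naive B cells, 124, 92.9 and 87.6 in activated B cells and 15.4, 20.3 and 15.8 in plasma cells. The 3 groups did not overlap, and the naive libraries were the highest. Its log2 change was -3.23 ± 0.18 (limma adjusted p = 6.85e-08) in plasma cells against naive B cells, a level 9.40-fold lower, and -2.52 ± 0.18 (adjusted p = 7.43e-07) in plasma cells against activated B cells, 5.73-fold lower. Pold1 was called lower in both comparisons under every alternative tried. In activated B cells against naive B cells its change was -0.71 ± 0.13 (limma adjusted p = 0.00194), under the fold minimum. Pold1 lies at chr7:44532746-44548849 on the minus strand, and none of its exonic bases are shared with another annotated gene.

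Among the accessory subunits of polymerase delta, Pold4 was also called lower in plasma cells than in both other groups, and Pold2 and Pold3 were not called in any comparison. Pold2 was at 51.2, 44.3 and 41.9 TPM in naive B cells, 56.1, 51.5 and 63.3 in activated B cells and 67.7, 74.8 and 70.5 in plasma cells. Plasma cells were above every other library, and activated B cells lay above naive B cells. The log2 change of Pold2 was 0.63 ± 0.12 (limma adjusted p = 0.00103) in plasma cells against naive B cells, under the fold minimum. It was 1.12 and called higher with median-of-ratios scaling, and negative with Ig genes kept. Pold3 was at 31.0, 33.4 and 36.2 TPM in naive B cells, 36.6, 28.2 and 35.7 in activated B cells and 22.0, 25.4 and 18.4 in plasma cells. Naive and activated B cells overlapped and plasma cells lay below both, with log2 changes of -0.62 ± 0.16 (limma adjusted p = 0.00667) against naive B cells and -0.60 ± 0.16 (adjusted p = 0.00855) against activated B cells. With Ig genes kept these were -1.76 and -1.73, and Pold3 was called lower in both. The ratio of Pold1 to Pold2 was 3.46, 3.57 and 3.74 in naive B cells, 2.20, 1.80 and 1.38 in activated B cells and 0.228, 0.271 and 0.223 in plasma cells. Pold4, the smallest subunit, was on the wider list of replication genes, at 265 to 320 TPM in naive B cells, 306 to 328 in activated B cells and 43.6 to 48.8 in plasma cells. On the log2 scale the change was -2.65 ± 0.11 (limma adjusted p = 7.6e-09) in plasma cells against naive B cells.

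Polymerase epsilon and the primase complex rose in activated B cells in part. Pole2, the second subunit of polymerase epsilon, was at 2.90, 4.35 and 3.58 TPM in naive B cells, 14.3, 13.9 and 18.5 in activated B cells and 7.07, 8.43 and 10.8 in plasma cells. These groups were separate, and plasma cells lay between the others. The fitted log2 change was 1.96 ± 0.23 (limma adjusted p = 0.000103) in activated B cells and 1.16 ± 0.25 (adjusted p = 0.00192) in plasma cells against naive B cells. The plasma cell change was 0.11 and not called with Ig genes kept. Pole, the catalytic subunit, was called higher in activated B cells with 1.40 ± 0.27 (limma adjusted p = 0.00239). In plasma cells its change was 0.47 ± 0.30 (limma adjusted p = 0.193). The latter was 1.02 and called higher with quantile normalization, and negative with Ig genes kept. Prim1, the catalytic subunit of primase, was at 18.8, 19.6 and 21.7 TPM in naive B cells, 75.4, 54.5 and 88.7 in activated B cells and 39.9, 38.5 and 46.8 in plasma cells. The 3 groups stood apart. It was called higher in activated B cells with 1.80 ± 0.19 (limma adjusted p = 5.01e-05) and in plasma cells with 1.03 ± 0.20 (adjusted p = 0.00113). The latter call was lost without naive replicate 1, at 0.99, without plasma cell replicate 3, at 0.95, and with Ig genes in the scaling, at -0.15. Pola1, the catalytic subunit of polymerase alpha, was called higher in activated B cells with 1.45 ± 0.20 (limma adjusted p = 0.000285) and lower in plasma cells against activated B cells with -1.02 ± 0.19 (adjusted p = 0.000963). The latter passed the fold minimum narrowly and fell short of it without activated replicate 1, plasma cell replicate 2 or plasma cell replicate 3, at -0.92 to -0.996, with median-of-ratios scaling, at -0.63, and with quantile normalization, at -0.56. Pola2 and Prim2, the partner subunits, were not called in any comparison, with log2 changes of 0.62 ± 0.14 (limma adjusted p = 0.00586) and 0.79 ± 0.20 (adjusted p = 0.00961) in activated B cells.

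**Figure D4:**
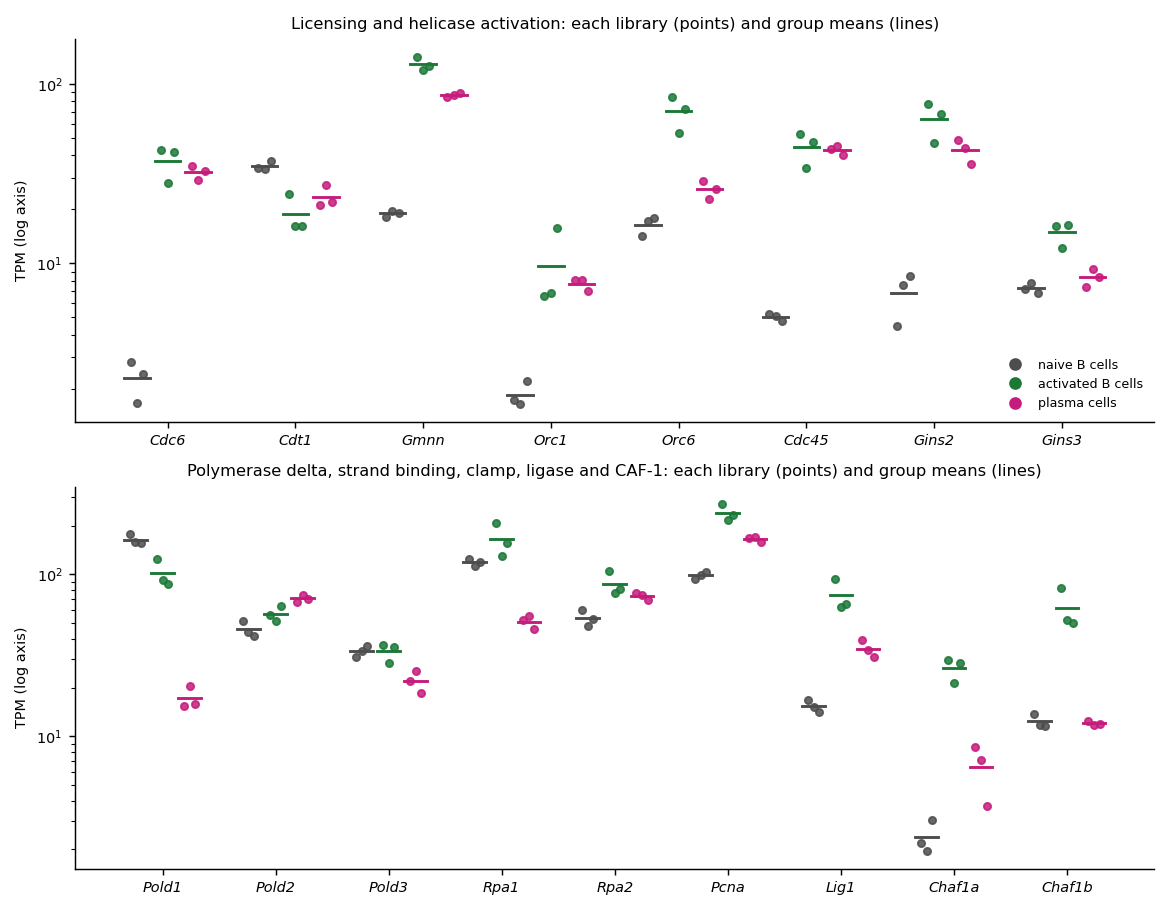
TPM (log axis) of 17 of the 40 genes in each of 9 libraries, with points for libraries and lines for group means. Pold1 is at 15.4 to 20.3 TPM in plasma cells while Pold2 is at 67.7 to 74.8, and Cdt1 is highest in naive B cells while Gmnn is lowest there.

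The sliding clamp rose in activated B cells and remained between the groups in plasma cells. Pcna, which encodes the clamp, had the highest mean TPM of its role, at 93.3, 99.6 and 103 TPM in naive B cells, 272, 217 and 232 in activated B cells and 167, 171 and 158 in plasma cells. The groups did not overlap. In log2 units the change was 1.27 ± 0.11 (limma adjusted p = 1.04e-05) in activated B cells and 0.74 ± 0.11 (adjusted p = 0.000141) in plasma cells against naive B cells, the latter under the fold minimum. With median-of-ratios scaling the plasma cell change was 1.23 and was called, and with Ig genes kept it was negative.

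The clamp loader RFC is represented by its 4 small subunits, Rfc2 to Rfc5. Its large subunit Rfc1, on the wider list, was at or under 3.38 TPM in all libraries and was called in none of the comparisons. Rfc4 was at 32.7, 31.6 and 32.8 TPM in naive B cells, 187, 126 and 183 in activated B cells and 117, 115 and 120 in plasma cells. Libraries of the 3 groups did not overlap, and its log2 change was 2.31 ± 0.17 (limma adjusted p = 4.39e-06) in activated B cells and 1.84 ± 0.17 (adjusted p = 4.22e-06) in plasma cells. Rfc4 shares 12.7% of its exonic bases with Eif4a2 on the opposite strand. Eif4a2 was at a mean of 343, 214 and 126 TPM in naive, activated and plasma cells. Rfc2 was at 16.1, 16.8 and 17.3 TPM in naive B cells, 29.3, 24.6 and 23.6 in activated B cells and 10.4, 11.4 and 13.1 in plasma cells. No overlap was seen between the groups and plasma cells were the lowest, with a log2 change of -1.12 ± 0.15 (limma adjusted p = 0.0001) against activated B cells, which was -0.74 with median-of-ratios scaling and -0.65 with quantile normalization. Its exons share 15.1% of their bases with Lat2 on the opposite strand, at a mean of 184, 272 and 52.0 TPM in naive, activated and plasma cells. The ratio of Rfc4 to Rfc2 was 1.89 to 2.03 in naive B cells, 5.13 to 7.76 in activated B cells and 9.15 to 11.2 in plasma cells. Rfc3 and Rfc5 were called higher in activated B cells with 1.10 ± 0.18 (limma adjusted p = 0.000791) and 1.499 ± 0.21 (adjusted p = 0.000266). The call of Rfc3 was lost without activated replicate 1, at 0.91. Rfc3 was also called lower in plasma cells than in activated B cells, at -1.03 ± 0.18 (limma adjusted p = 0.000537). It fell under the fold minimum without activated replicate 1, at -0.84, without plasma cell replicate 1, at -0.99, and with either median-of-ratios scaling or quantile normalization, at -0.65.

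Of the single-strand binding protein RPA, Rpa1 was called lower in plasma cells than in both other groups. Rpa1, its largest subunit, was at 125, 113 and 120 TPM in naive B cells, 209, 130 and 156 in activated B cells and 51.9, 55.6 and 45.7 in plasma cells. These groups were separate and plasma cells were the lowest. The change (log2) was 0.43 ± 0.15 (limma adjusted p = 0.0451) in activated B cells and -1.22 ± 0.17 (adjusted p = 0.000121) in plasma cells against naive B cells, and -1.65 ± 0.17 (adjusted p = 1.3e-05) in plasma cells against activated B cells. With median-of-ratios scaling the plasma cell change against naive B cells was -0.73, under the fold minimum. Rpa2, the middle subunit, was at 60.0, 48.1 and 53.2 TPM in naive B cells, 105, 76.8 and 81.5 in activated B cells and 77.0, 74.1 and 69.9 in plasma cells. The NP-binding groups overlapped above the naive libraries, and Rpa2 was called in none of the comparisons. The ratio of Rpa1 to Rpa2 was 2.08 to 2.36 in naive B cells, 1.69 to 2.00 in activated B cells and 0.655 to 0.751 in plasma cells. Rpa3, the small subunit on the wider list, was called higher in activated B cells, by 1.35 ± 0.14 log2 units (limma adjusted p = 3.89e-05), and lower in plasma cells than in activated B cells, with -1.39 ± 0.14 (adjusted p = 1.05e-05).

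Of the enzymes that finish the lagging strand, Lig1 and Fen1 were both called higher in activated B cells and in plasma cells than in naive B cells. Lig1, the ligase that seals the fragments, was at 16.8, 15.2 and 14.1 TPM in naive B cells, 94.0, 62.9 and 65.2 in activated B cells and 39.6, 34.2 and 30.7 in plasma cells. The 3 groups stood apart, and plasma cells lay between the others. Its log2 change was 2.20 ± 0.20 (limma adjusted p = 1.58e-05) in activated B cells and 1.14 ± 0.21 (adjusted p = 0.000711) in plasma cells against naive B cells, the latter -0.03 with Ig genes in the scaling. In plasma cells against activated B cells it was -1.06 ± 0.17 (limma adjusted p = 0.00035). It was under the fold minimum without activated replicate 1, at -0.88, without plasma cell replicate 3, at -0.97, with median-of-ratios scaling, at -0.68, and with quantile normalization, at -0.64. Fen1, the nuclease that trims the flaps, was at 45.3, 49.2 and 47.5 TPM in naive B cells, 147, 104 and 98.1 in activated B cells and 151, 158 and 132 in plasma cells. The NP-binding groups overlapped above the naive libraries, with log2 changes of 1.26 ± 0.16 (limma adjusted p = 0.000183) and 1.62 ± 0.16 (adjusted p = 7.89e-06). The plasma cell change was 0.40 with Ig genes kept, under the fold minimum. Fen1 is uncertain as a measurement of 1 gene, since 84.2% of its exonic bases are shared with genes on the opposite strand. Of these, Gm10143 covers 78.8% and Tmem258 5.37%, and Tmem258 was at a mean of 310.0, 415 and 1710 TPM in naive, activated and plasma cells. The part of these overlaps in the Fen1 values was not tested.

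Chaf1a and Chaf1b, subunits of the histone chaperone CAF-1, were called higher in activated B cells than in naive B cells and lower in plasma cells than in activated B cells. The subunit Rbbp4, which is shared with other chromatin complexes and was on the wider list, was called in none of the comparisons, with a log2 change of 0.36 ± 0.16 (limma adjusted p = 0.0991) in activated B cells. Chaf1b was at 13.7, 11.8 and 11.6 TPM in naive B cells, 82.6, 51.9 and 50.3 in activated B cells and 12.4, 11.8 and 12.0 in plasma cells. Naive and plasma cell libraries overlapped, and the activated libraries lay far above both. On the log2 scale the change was 2.23 ± 0.22 (limma adjusted p = 2.86e-05) in activated B cells against naive B cells, -2.27 ± 0.22 (adjusted p = 7.84e-06) in plasma cells against activated B cells and -0.04 ± 0.26 (adjusted p = 0.906) in plasma cells against naive B cells. With Ig genes kept the last was -1.13 and was called lower. Chaf1b lies at chr16:93883901-93906115 on the plus strand and shares no exonic base with another gene. Chaf1a was at 2.19, 1.94 and 3.02 TPM in naive B cells, 29.5, 21.3 and 28.4 in activated B cells and 8.59, 7.10 and 3.72 in plasma cells. The groups did not overlap. The fitted log2 change was 3.22 ± 0.31 (limma adjusted p = 2.81e-05) in activated B cells against naive B cells and -2.00 ± 0.26 (adjusted p = 7.05e-05) in plasma cells against activated B cells. Against naive B cells the plasma cell change was 1.21 ± 0.35 (limma adjusted p = 0.012), and the call was lost without plasma cell replicate 1, at 0.98, and with Ig genes kept, at 0.23. More than 50% of the exonic bases of Chaf1a, 52.5%, are shared with Ubxn6 on the opposite strand, which was at a mean of 42.2, 30.3 and 26.7 TPM in naive, activated and plasma cells. The ratio of Chaf1b to Pcna was 0.112 to 0.147 in naive B cells, 0.217 to 0.304 in activated B cells and 0.0691 to 0.0755 in plasma cells.

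Tipin, which with Timeless stabilises stalled forks, had the highest mean TPM of its role, at 42.2, 48.7 and 51.5 TPM in naive B cells, 198, 153 and 191 in activated B cells and 95.9, 98.4 and 101 in plasma cells. Libraries of the 3 groups did not overlap. It was called higher in activated B cells with 1.91 ± 0.13 (limma adjusted p = 3.08e-06) and in plasma cells with 1.05 ± 0.13 (adjusted p = 5.26e-05). The latter call was lost without naive replicate 1, at 0.97, and the change was -0.16 with Ig genes in the scaling. Timeless, on the wider list, had a log2 change of 0.53 ± 0.13 (limma adjusted p = 0.00973) in activated B cells and was called in none of the comparisons.

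**Figure D5:**
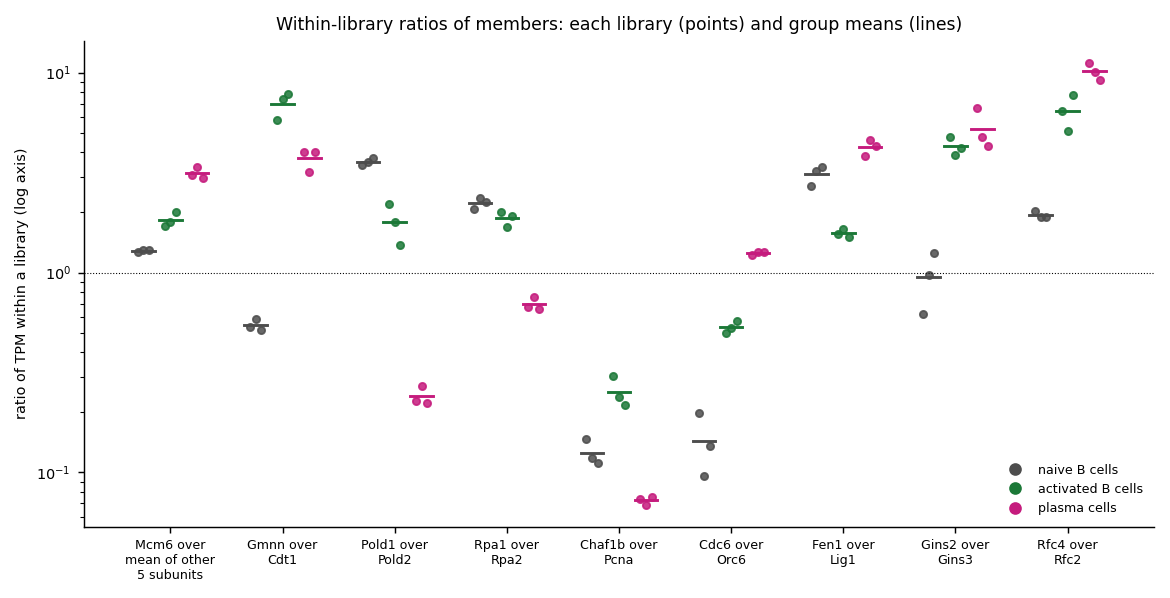
Ratios of TPM within a library (log axis) for 9 pairs, with points for libraries and lines for group means; a ratio does not move with a single scaling factor per library, though quantile normalization can move it. Pold1 over Pold2 is 0.223 to 0.271 in plasma cells and 3.46 to 3.74 in naive B cells, and Mcm6 over the other subunits is 2.96 to 3.37 and 1.26 to 1.30.

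The 2 activating E2F factors on the list differed. E2f1 was at 2.89, 2.12 and 1.76 TPM in naive B cells, 24.3, 4.53 and 8.71 in activated B cells and 7.38, 4.48 and 5.55 in plasma cells. The NP-binding groups overlapped above the naive libraries, and activated replicate 1 stood above the rest of its group. In log2 units the change was 1.94 ± 0.58 (limma adjusted p = 0.0206) in activated B cells, and it lost the call without naive replicate 2 (adjusted p = 0.0589) or naive replicate 3 (adjusted p = 0.0722). In plasma cells E2f1 had a change of 1.18 ± 0.61 (limma adjusted p = 0.116), which was called without activated replicate 1 (adjusted p = 0.0105) and in 6 other alternatives. E2f2 was at 25.3, 22.6 and 30.003 TPM in naive B cells, 32.8, 21.1 and 18.2 in activated B cells and 11.8, 13.2 and 12.4 in plasma cells. Naive and activated B cells overlapped and plasma cells were below both, with a log2 change of -1.03 ± 0.22 (limma adjusted p = 0.00232) against naive B cells. That change was under the fold minimum without naive replicate 3, at -0.92, and without plasma cell replicate 1, at -0.99. It was -0.54 with median-of-ratios scaling and -0.51 with quantile normalization.

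The calls of the 40 genes over the 3 comparisons, which share their groups, fall into a few patterns, which depend on the scaling where plasma cells enter. Called higher in both activated B cells and plasma cells than in naive B cells, and not called between the NP-binding groups, were 13 genes (2.34% of all genes tested had this pattern): Orc1, Cdc6, Gmnn, Mcm6, Mcm10, Cdc45, Gins1, Gins2, Prim1, Pole2, Rfc4, Fen1 and Tipin. With Ig genes kept, 8 of the 13 were no longer called higher in plasma cells than in naive B cells (Orc1, Gmnn, Mcm6, Prim1, Pole2, Rfc4, Fen1 and Tipin), and 12 of the 13, Fen1 being the exception, were called lower than in activated B cells, beside 59.7% of all genes. Lig1 and Chaf1a, 2 genes, were called higher in both and lower in plasma cells than in activated B cells (0.411% of all genes), and with Ig genes kept neither was called against naive B cells in plasma cells. Called higher in activated B cells and lower again in plasma cells, with no call between plasma and naive B cells, were 7 genes (2.62% of all genes): Orc6, Mcm3, Mcm4, Mcm7, Pola1, Rfc3 and Chaf1b. Called higher in activated B cells than in naive B cells, with no other call, were 6 genes (1.37% of all genes): Mcm2, Mcm5, Pole, Pcna, Rfc5 and E2f1. Pold1 and Rpa1 were called lower in plasma cells than in both other groups without a call between those (12.8% of all genes), E2f2 was called lower in plasma cells against naive B cells alone (7%), and Rfc2 against activated B cells alone (3.93%). A further 8 genes (Cdt1, Gins3, Gins4, Pola2, Prim2, Pold2, Pold3 and Rpa2) were called in none of the comparisons (48.3% of all genes). With Ig genes kept, all of these but Pold2 were called lower in plasma cells than in naive or activated B cells, as were 74.6% of the 12324 genes then tested. The differences between the calls of single genes were not tested.

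Within the activated group the libraries did not vary gene by gene alone. Replicate 1 held the highest TPM of its group for 32 of the 40 genes and replicate 2 the lowest for 30, whereas over all genes tested replicate 1 was highest for 44.8% and replicate 2 lowest for 38.0%. Summed over the 40 genes, the 3 activated libraries were at 3516, 2527 and 3009 TPM, and the plasma cell libraries at 1900, 1917 and 1724. Replicate 1 was also highest and replicate 2 lowest for the summed proliferation genes, at 815 and 580.0 TPM. Leaving out activated replicate 1, 26 of the 40 genes were called higher than in naive B cells (7.42% of all genes), and leaving out replicate 2, 29 were (9.44%).

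The 40 genes lie on 16 chromosomes, with at most 6 on any of them, and 14 share exonic bases with another annotated gene (GENCODE M21 on GRCm38, the assembly that the authors' mm10 build names). For 12 of these the shared part exceeds 5% of the gene's exonic bases. Not named above were overlaps on the opposite strand of Orc6 with Vps35 (6.93%), Mcm7 with Ap4m1 (7.25%) and Cops6 (1.45%), Rfc5 with Wsb2 (10.7%) and Lig1 with Zswim9 (5.79%). Pole2 shares 8.5% with Gm49384 on the same strand. The part of these overlaps in the values was not tested.

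The wider list of 63 replication genes, drawn up beside the 40, was examined in the same comparisons. In activated B cells against naive B cells, 25 of 63 were called higher and 1 lower, against 8.13% and 10.4% of all genes, with a median log2 change of 0.70 beside -0.16 for all genes tested. The largest rises were those of Tfdp1, Top2a and Asf1b. Top2a, the topoisomerase that untangles sister chromatids, was at 15.5, 16.1 and 16.4 TPM in naive B cells, 131, 111 and 146 in activated B cells and 87.2, 75.0 and 77.5 in plasma cells, with a log2 change of 2.96 ± 0.15 (limma adjusted p = 8.11e-07) in activated B cells. Asf1b, a histone chaperone that hands histones to CAF-1, was at 12.1, 14.2 and 15.8 TPM in naive B cells, 142, 81.3 and 124 in activated B cells and 48.6, 51.5 and 40.4 in plasma cells, with a log2 change of 2.96 ± 0.25 (limma adjusted p = 1.04e-05) in activated B cells. Both genes kept their 3 groups apart, with plasma cells between the others. Tfdp1, the partner of E2F factors, rose by 3.59 ± 0.84 (limma adjusted p = 0.00645) but was erratic, at 2.86, 1.99 and 0 TPM in naive B cells and 31.3, 13.7 and 15.9 in activated B cells. The 1 gene called lower was Cul4a, a scaffold of the ligase that degrades Cdt1, at 122, 93.4 and 102 TPM in naive B cells and 35.9, 53.0 and 37.6 in activated B cells, with a log2 change of -1.34 ± 0.23 (limma adjusted p = 0.00104). The libraries of these 2 groups did not overlap.

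In plasma cells against naive B cells, 12 of the 63 were called higher and 7 lower, against 11.4% and 26.3% of all genes, with a median of -0.07 beside -0.47. Plasma cell counts of the wider list are given for the main scaling only. With Ig genes kept, 64.5% of all genes were called lower in plasma cells than in naive B cells and 59.7% lower than in activated B cells. The largest rises were Top2a at 2.28, Clspn, a checkpoint mediator at the fork, at 1.93, and Top1, the topoisomerase that relieves torsion ahead of the fork, at 1.90, each with a limma adjusted p of 1.63e-05 or less. The largest falls were Pold4 at -2.65, E2f5, a repressor-type E2F, at -2.20 (limma adjusted p = 0.000516) and Rad9a, a subunit of the checkpoint clamp, at -1.56 (adjusted p = 1.68e-05). In plasma cells against activated B cells, 0 were called higher and 20 lower, against 9.93% and 22.3% of all genes, and 5 were higher at an unadjusted limma p under 0.05, against 17.5%, with a median of -0.63 beside -0.30. The largest falls were Tfdp1 at -3.85 ± 0.88 (limma adjusted p = 0.00342), Pold4 at -2.77 ± 0.11 (adjusted p = 6.7e-09) and Mcmbp, which binds MCM subunits outside the ring, at -2.61 ± 0.43 (adjusted p = 0.000379). Mcmbp was at 16.3, 14.9 and 17.4 TPM in naive B cells, 82.5, 28.0 and 67.9 in activated B cells and 6.35, 8.86 and 10.6 in plasma cells. Of the 7 genes listed for replication-coupled chromatin, 5 were called lower in plasma cells than in activated B cells (Asf1a, Asf1b, Rbbp7, Uhrf1 and Dnmt1), beside 22.3% of all genes. Of the 7 checkpoint genes, 0 were called in that comparison, and 2 (Rad1 and Rad9a) were lower at an unadjusted limma p under 0.05, beside 41.4% of all genes. For origin recognition and licensing 2 of 10 genes were called lower, a share near that of all genes.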

How the data were processed

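Polyadenylated RNA of sorted splenic cells was made into cDNA and sequenced, and per the labels and the study's methods the authors quantified transcripts with kallisto against mm10 (transcript annotation not given in the sources used here), summed them per gene symbol and deposited TPM values in tables with and without Ig genes. The authors also deposited log2 values from voom for both tables, in which 0.5 counts were added before each library was scaled by its size. Estimated reads were recovered from those log2 values, since genes at 0 share the value of 0.5 counts. The kit does not keep strand, so reads in exonic bases shared by genes on opposite strands cannot be assigned by strand. The 40 genes, the wider list and the marker lists were chosen with earlier results of these data known. A marker gene is not reported here and was left out of its list.

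The TPM values without Ig genes were passed to voom in limma 3.58.1 (R 4.3.3), after the study's methods, with library sizes equal to column sums and genes kept at a TPM of 1 or more in 3 or more libraries (12892 genes). One model with 3 group means was fitted to 9 libraries, without a replicate block. Calls needed a Benjamini-Hochberg adjusted p under 0.05 and a fold change above 2. TPM is not a count, and voom, a method made for counts, took each TPM value as if it were one and added 0.5 to it. The deposited log2 values were scaled by the estimated reads of each library instead of by TPM sums. The fitting script was tested on simulated data. The replicates are 3 per group, and whether a number marks the same mouse in each group is not stated.

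The genes described in full were, in each role and comparison, the 1 with the largest change and the 1 with the highest mean TPM, genes called against the direction of most, and MCM2-7 whole; of the wider list, the 3 largest rises and falls among those called. Genes beyond these were named after their values were seen. Alternatives were other scalings, filters, offsets on the log2 scale, the deposited log2 values, a replicate block, only the 6 libraries compared, no fold minimum, and leaving out each library. Promoter windows came from RefSeq (GRCm38.p6).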

Additional observations from a re-analysis of the deposited data

How the results depend on the processing

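For activated B cells against naive B cells, the count of genes called higher was 25 to 29 under the scalings, filters, offsets, block and left-out libraries, against 28 as reported, and 35 without a fold minimum (18.6% of all genes). The count called lower was 0 as reported, 2 without a fold minimum (Cdt1 and Pold1, beside 23.5% of all genes), and 0 to 1 over the left-out libraries. For plasma cells against naive B cells, 15 higher and 3 lower became 23 and 1 with median-of-ratios scaling, 5 and 10 with Ig genes in the table, and 23 and 6 without a fold minimum (18.2% and 42.2% of all genes). Here 13 to 16 were higher and 2 to 3 lower over the left-out libraries. For plasma cells against activated B cells, 12 lower became 6 with median-of-ratios scaling, 5 with quantile normalization, 37 with Ig genes in the table and 27 without a fold minimum, where 1 was higher, and 8 to 16 over the left-out libraries. Of all genes, 59.7% were called lower in that comparison with Ig genes in the table and 38.1% without a fold minimum.

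With Ig genes in the table the plasma cell change against naive B cells turned from above to below 0 for 19 of the 40 genes. The call changed as well for 5 of these, Mcm7 (-1.12), Rfc3 (-1.11), Prim1 (-0.15), Tipin (-0.16) and Lig1 (-0.033). Against activated B cells the plasma cell change turned below 0 for 3 genes, Cdt1, Fen1 and Pold2. These follow from the scaling, which moved the median of all genes to -1.40 and -1.27 in these comparisons.

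Same-numbered libraries did not deviate together (correlations of -0.075 to 0.068), and the numbers are not tied to mice, so the pairing was not used. With the replicate block, 28 and 0, 16 and 3, and 0 and 12 genes were called higher and lower in the 3 comparisons. The only changed call was E2f1, called higher in plasma cells.

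With 3 libraries per group, calls near a 2-fold change depended on single libraries, and none of the 40 genes had under 86.83 estimated reads in a library. On the wider list the lowest were 0 for Tfdp1, 0.0046 for Rfc1 and 38.03 for E2f5.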
